A study of Caenorhabditis elegans with 2 samples.

Results

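The 6 vitellogenin genes of Caenorhabditis elegans, vit-1 to vit-6, were examined for peaks of the tagged zinc finger protein ZTF-25. They were taken by symbol from the Ensembl annotation of WBcel235 and are 6 of its 19973 nuclear protein-coding genes. The series mapped ZTF-25 by chromatin immunoprecipitation and sequencing (ChIP-seq) in whole young adults aged 63 hours. The strain was RW12287, whose allele st12287 adds TY1, EGFP and 3xFLAG to the endogenous ztf-25 gene on chromosome V, and the precipitation used an antibody to GFP. Its 2 samples were biological replicates of 1 group, grown from bleached embryos that were held as starved first larval stage worms to bring them into step. All samples carried the tagged allele, and no untagged sample was analysed here. With 1 group there was no contrast between conditions, so counts and levels are given beside those of all protein-coding genes, with no test.

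Vitellogenins are the precursors of yolk. In the adult hermaphrodite the intestine makes them in large amounts and secretes them into the body cavity, and oocytes take them up through the receptor RME-2. The products of vit-1 to vit-5 form the large yolk proteins, and the product of vit-6 is cut into the smaller ones. Their promoters hold short elements called VPE1 and VPE2 (vitellogenin promoter elements), and VPE2 is a site of the GATA type that is read by the intestinal factor ELT-2. Because the worms were taken whole, chromatin of intestinal cells was a part of the material, and signal from the cells that transcribe these genes and from those that do not cannot be told apart.

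The genes have much the same size and order, and 5 of them lie on the X chromosome. In ce11, vit-1 (WBGene00006925) lies at chrX:7727889-7733168 and vit-2 (WBGene00006926) at chrX:5101042-5106169, both on the plus strand. On the minus strand, vit-3 (WBGene00006927) lies at chrX:3567355-3572549 and vit-4 (WBGene00006928) at chrX:3558769-3563965. On the plus strand again, vit-5 (WBGene00006929) lies at chrX:3403471-3408603 and vit-6 (WBGene00006930) at chrIV:8261157-8266459. Their lengths ran from 5128 bp at vit-2 to 5303 bp at vit-6, with 5 exons in vit-1, vit-2 and vit-6 and 6 exons in vit-3, vit-4 and vit-5. The coding sequences of vit-3 and vit-4 were 99.0% identical over 4809 aligned bases, and vit-5 was 97.7% identical to vit-3 and 97.8% to vit-4. A second close pair was vit-1 and vit-2, at 93.8%. The gene on chromosome IV, vit-6, was the most distant, at 52.5% to 54.1% identity with the other members. No gene of a transfer, ribosomal, small nuclear or small nucleolar RNA was close, the nearest being the snoRNA gene H09I01.2, 7992 bp from vit-6.

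Peaks that passed the deposited threshold were found at vit-2 and vit-5 and at no other vitellogenin gene. The files rank peaks by the irreproducible discovery rate (IDR), which is low where a peak's rank repeats between a pair of peak calls. In the conservative list, which rests on both libraries and holds 1092 peaks, vit-2 had 2 peaks and vit-5 had 1, counting any peak with at least 1 bp inside the gene or its flanks of 1000 bp to either side. That is 2 of 6 vitellogenin genes, while 6.31% of all protein-coding genes had such a peak, and 7.94% of the 4922 with a length of 3000 to 8000 bp. The combined list of 1368 peaks had the same 3 peaks, with 7.94% of protein-coding genes marked. The thresholded list of replicate 1 (515 peaks) had only the peak at vit-5, with 3.14% of genes marked, and the thresholded list of replicate 2 (295 peaks) had none at the 6 genes, with 1.81% of genes marked.

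All 3 conservative peaks were inside the genes, in coding exons. The peak at vit-5 (chrX:3403502-3403777) had its summit 169 bp into the gene, in exon 1, and a signal of 85.4, the authors' value for the height of a peak, on a scale that is not stated. At vit-2, the first peak (chrX:5101201-5101476) had its summit 297 bp into the gene, also in exon 1, and a signal of 78.0. The second vit-2 peak (chrX:5104624-5104899) had its summit 3720 bp into the gene, in exon 3, and a signal of 72.3. These were modest peaks within the list, at ranks 715, 882 and 1007 of 1092 by signal, where the median signal was 93.9. Summits in a coding exon numbered 131 of 1092 in the list, and 2.39% of protein-coding genes had a conservative summit inside the gene. Coding sequence makes up 4839 of the 5128 bp of vit-2 and 4809 of the 5133 bp of vit-5. A summit inside either gene would thus mostly fall in a coding exon. Guanine and cytosine made up 52.2%, 48.6% and 47.8% of the bases of the first vit-2 peak, the second vit-2 peak and the vit-5 peak, against a median of 43.1% over the list.

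The sequences of these 3 peaks are shown because they are the places in the family that passed the threshold in the conservative list. Each is 276 bases of the plus strand of the ce11 genome, read from RefSeq's files of WBcel235, with the 11 bases centred on the summit in capitals.
vit-5 exon 1 peak: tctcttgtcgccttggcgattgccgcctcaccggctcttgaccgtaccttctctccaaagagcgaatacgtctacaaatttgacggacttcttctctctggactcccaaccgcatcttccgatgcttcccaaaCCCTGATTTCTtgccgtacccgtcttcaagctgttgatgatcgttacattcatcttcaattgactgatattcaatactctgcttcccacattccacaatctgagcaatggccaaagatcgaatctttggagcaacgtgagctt
vit-2 exon 1 peak: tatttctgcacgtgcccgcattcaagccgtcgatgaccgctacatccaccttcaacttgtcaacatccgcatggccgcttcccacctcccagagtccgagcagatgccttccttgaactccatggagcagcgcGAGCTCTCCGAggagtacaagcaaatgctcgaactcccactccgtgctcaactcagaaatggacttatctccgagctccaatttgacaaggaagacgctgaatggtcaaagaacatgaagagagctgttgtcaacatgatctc
vit-2 exon 3 peak: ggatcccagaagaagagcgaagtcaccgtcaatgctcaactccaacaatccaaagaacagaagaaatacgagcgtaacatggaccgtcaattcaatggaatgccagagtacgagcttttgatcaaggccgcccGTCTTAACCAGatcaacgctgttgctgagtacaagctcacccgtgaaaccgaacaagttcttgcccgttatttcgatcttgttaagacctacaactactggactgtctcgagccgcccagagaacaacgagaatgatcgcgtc

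**Figure D1:**
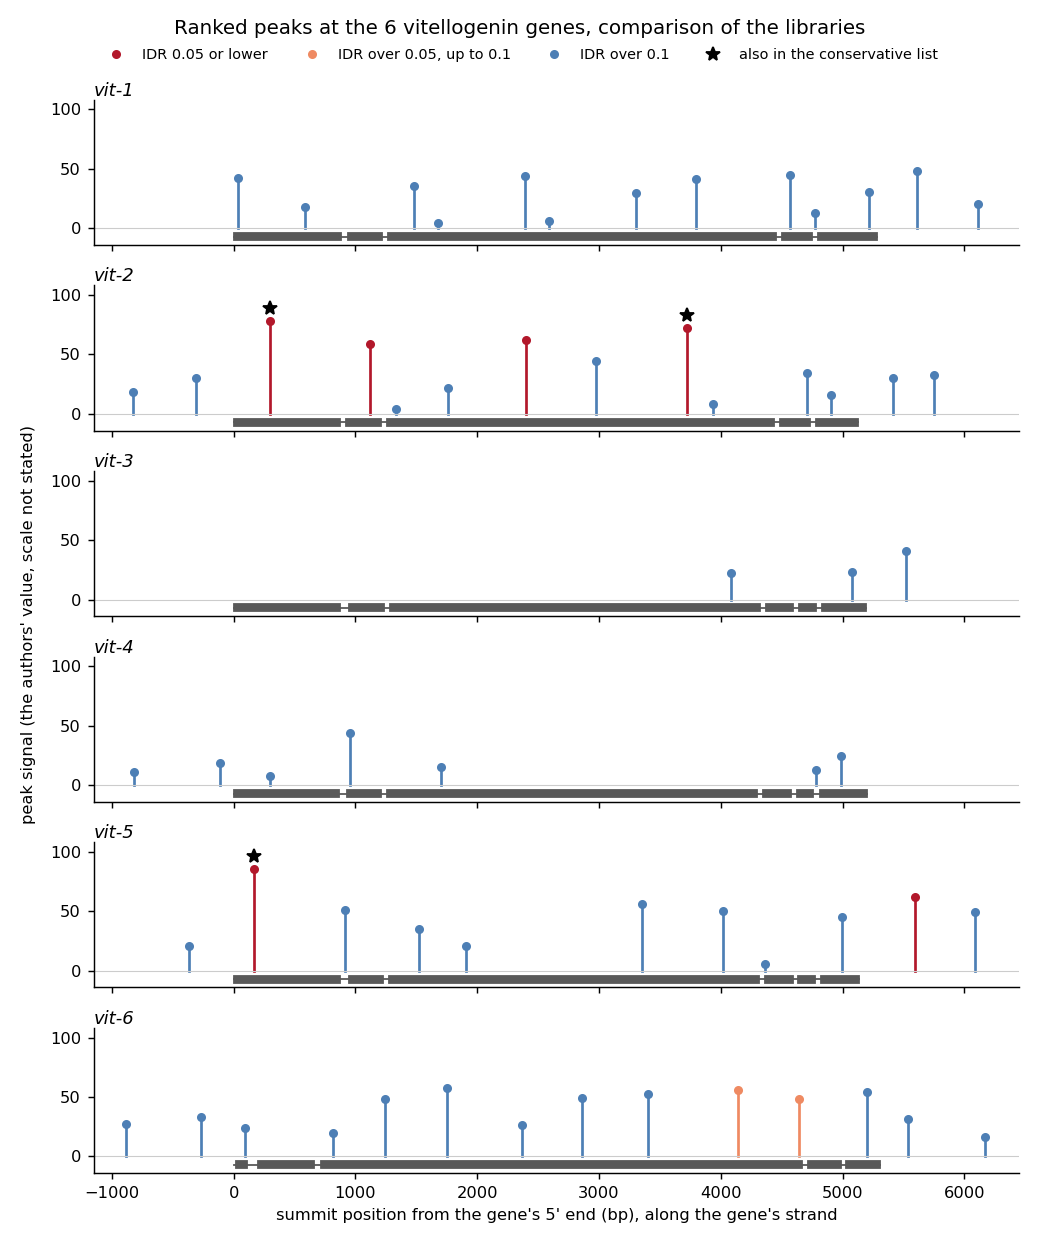
Peaks of the ranked comparison of the libraries at each vitellogenin gene, with the summit's position from the 5′ end (bp) on the x axis, the peak's signal on the y axis, and exons drawn as boxes below each panel. Stems are coloured by IDR and stars mark the 3 peaks that were also in the conservative list, at vit-2 (78.0 and 72.3) and vit-5 (85.4), while vit-3 had 3 peaks in all, none over 40.8.

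Below the threshold, each vitellogenin gene had ranked peaks, but so did most genes. The ranked comparison of the libraries, which holds 104189 peaks, had 62 at the 6 genes, with 14 at vit-2, 14 at vit-6, 13 at vit-1, 11 at vit-5, 7 at vit-4 and 3 at vit-3. Such peaks covered 32.3% of the body of the median protein-coding gene, and the median gene had 1.24 of them per 1000 bp of gene and flanks, so a ranked peak alone marks nothing out. At an IDR of 0.05 or lower there were 6 peaks, in 2 of the 6 genes, while 15.4% of all protein-coding genes had one. At an IDR of 0.1 or lower there were 8 peaks, in 3 of the 6 genes, while 24.4% of all protein-coding genes had one.

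The 6 genes differed widely in how many peaks they held for their length. In peaks per 1000 bp, vit-2 had 1.96, vit-6 had 1.92, vit-1 had 1.79 and vit-5 had 1.54. Fewer were found at vit-4, with 0.973 per 1000 bp, and at vit-3, with 0.417. The share of protein-coding genes with a lower density was 93.0% for vit-2, 91.6% for vit-6, 86.7% for vit-1, 72.9% for vit-5, 30.8% for vit-4 and 12.1% for vit-3. In the replicates' own ranked lists that share was 41.4% in replicate 1 and 88.0% in replicate 2 for vit-1, and 66.1% in replicate 1 and 20.5% in replicate 2 for vit-4, so the place of these 2 genes rested on which library was used. It stayed above 90% in both for vit-2 and vit-6, at 98.6% and 92.4% in replicate 1 and 98.8% and 97.3% in replicate 2. Other settings moved it. In the second ranked list of the series it was 93.6% for vit-2 and 70.4% for vit-6. For gene bodies alone it was 78.8% and 76.7%, and with flanks of 2000 bp 78.0% and 89.3%. Among genes of 3000 to 8000 bp it was 96.3% and 95.2%. Measured as the highest signal in the window, the order was vit-5 (85.4), vit-2 (78.0), vit-6 (57.9), vit-1 (48.2), vit-4 (44.1) and vit-3 (40.8). The members' median of that quantity was 53.1, against 44.9 over all protein-coding genes and 48.6 over those of 3000 to 8000 bp. On this measure 95.5% of genes were lower than vit-5 and 93.8% lower than vit-2, while vit-1, vit-4 and vit-3 stood at 58.3%, 48.0% and 39.4%, near the middle of all genes.

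**Figure D2:**
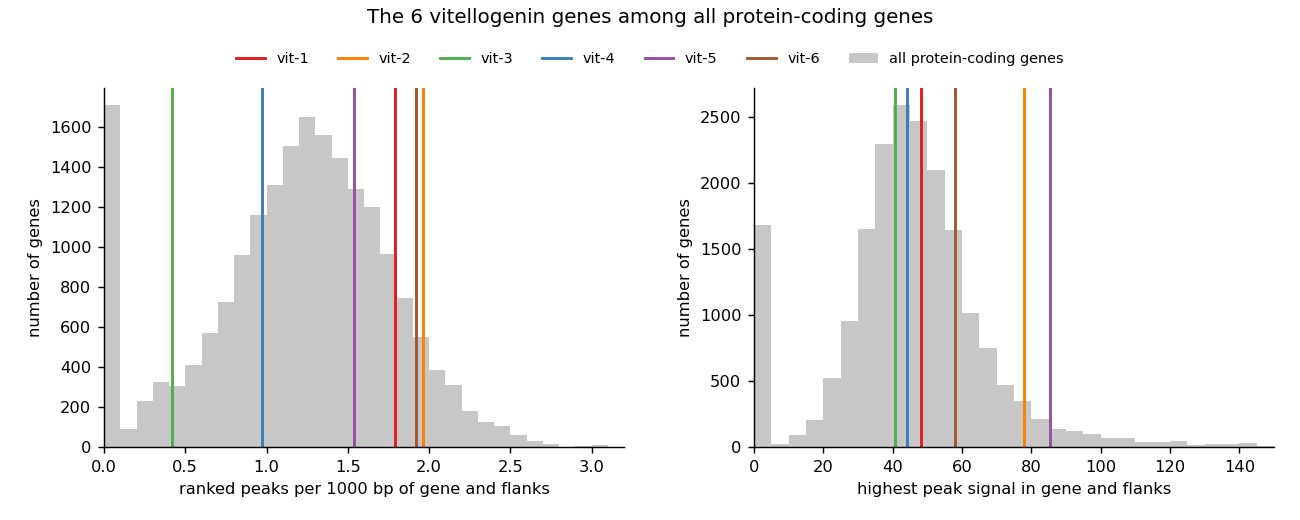
The 6 vitellogenin genes (coloured lines) among all 19973 protein-coding genes (grey histogram of gene counts), for ranked peaks per 1000 bp of gene and flanks (left) and for the highest signal in that window (right, drawn to 150), both in the ranked comparison of the libraries. In density vit-2, vit-6 and vit-1 lie at 1.79 to 1.96 and vit-3 at 0.417, and in highest signal vit-5 and vit-2 stand apart at 85.4 and 78.0.

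Along vit-2, the 4 highest peaks lay between 297 and 3720 bp into the gene. Besides the conservative peaks at 297 bp (IDR 0.00839) and 3720 bp (IDR 0.00473), it had peaks with a signal of 62.1 at 2399 bp (IDR 0.0350) and 59.0 at 1121 bp (IDR 0.0472). These were 4 of the 6 family peaks at an IDR of 0.05 or lower, and all of them lay in coding exons. The last 3 peaks inside vit-2, beyond 3720 bp, had signals of 8.61, 34.3 and 15.9. Outside the gene, vit-2 had 2 upstream peaks, at -825 and -311 bp, with signals of 18.0 and 30.1, and 2 peaks past the 3′ end, in C42D8.9, with 29.9 and 32.7. The highest flanking peak, at 32.7, was lower than the 4 peaks in the gene named above.

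At vit-5 the exon 1 peak stood highest (IDR 0.00584), and the next highest lay past the 3′ end. That peak, 459 bp beyond the gene and within unc-78, had a signal of 62 and an IDR of 0.0254. Within the gene, peaks at 3355, 918 and 4020 bp had signals of 56.4, 50.9 and 50.7, at IDRs of 0.177, 0.363 and 0.538. The only peak upstream of vit-5, at -370 bp, had a signal of 20.5 and an IDR of 0.761.

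At vit-6 none of the 14 peaks had an IDR of 0.05 or lower in the comparison of the libraries. Of its 10 peaks in the gene, those at 1751, 4140 and 3406 bp had signals of 57.9, 55.7 and 52.4, and the lowest, at 816, 95 and 2370 bp, had 19.4, 24.0 and 26.3. The lowest IDRs were 0.0716 at 4642 bp, where the signal was 48.5, and 0.0981 at 4140 bp. Upstream of vit-6 the 2 peaks, at -885 and -266 bp, had signals of 27.2 and 32.8. In the second ranked list of the series, whose pair of calls is not given in the sources used here, 3 of the vit-6 peaks had an IDR of 0.05 or lower (0.0311 at 3406 bp, 0.0435 at 1751 bp and 0.0466 at 4140 bp). That list had 8 such peaks in 3 of the 6 genes, with 3 at vit-2, whose peak at 1121 bp had an IDR of 0.171 there. The share of all protein-coding genes with such a peak was not computed for that list.

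At vit-1 none of the 13 peaks had an IDR of 0.1 or lower. The highest signal, 48.2, was at a summit 333 bp past the 3′ end, inside set-12 on the opposite strand (IDR 0.200). Inside the gene, peaks at 4564, 2392, 36 and 3793 bp had signals of 44.8, 44.0, 42.4 and 41.2. The peak at 36 bp spans the annotated start and was the only vit-1 peak in the promoter window. No conservative peak lay within 1000 bp of vit-1, and the nearest, with a signal of 78.2 (chrX:7725939-7726214), had its summit 1812 bp before the 5′ end.

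The near-identical neighbours vit-3 and vit-4 had the fewest peaks. At vit-3 there were 3, with signals of 40.8 at 324 bp past the 3′ end, 23.0 at 5075 bp and 22.3 at 4082 bp into the gene, and none nearer to its 5′ end or upstream. At vit-4 the highest of 7 peaks had a signal of 44.1 at 956 bp (IDR 0.241), and the others ran from 7.50 to 24.5. Ranked peaks covered 10.3% of the bases of vit-3 and 25.6% of those of vit-4, against 43.0% of vit-5 and 49.8% to 50.6% of vit-1, vit-2 and vit-6.

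The family's peaks were divided by place along the gene. A summit was called promoter from 1000 bp upstream to 500 bp inside the 5′ end, 3′ end from 500 bp inside to 1000 bp past the 3′ end, and body otherwise. On that division 33 of the 62 peaks (53.2%) were in the body, 17 (27.4%) at the 3′ end and 12 (19.4%) in the promoter window. Over all protein-coding genes of 3000 to 8000 bp the shares were close to these, at 52.5% in the body, 23.9% at the 3′ end and 23.6% in the promoter window. Strictly upstream of the 5′ end there were 7 summits, inside the genes 46 and downstream 9. Of the 46 inside, 42 were in coding exons, 3 in introns and 1 in the 3′ UTR of vit-1. Coding sequence took up 4809 to 4953 bp of these genes of 5128 to 5303 bp. Most summits inside them would thus fall in coding exons wherever they lay, and the count of 42 marks nothing out. Per 1000 bp, upstream flanks had 2.00 peaks at vit-2, vit-4 and vit-6, 1.00 at vit-5 and 0 at vit-1 and vit-3, and the gene bodies had between 0.385 at vit-3 and 2.08 at vit-1. The strongest peak was inside the gene at vit-2, vit-4, vit-5 and vit-6 and downstream at vit-1 and vit-3. Upstream it was at none of them, while 19.6% of the 4601 protein-coding genes of 3000 to 8000 bp with a ranked peak had theirs upstream, 60.3% inside and 20.1% downstream.

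**Figure D3:**
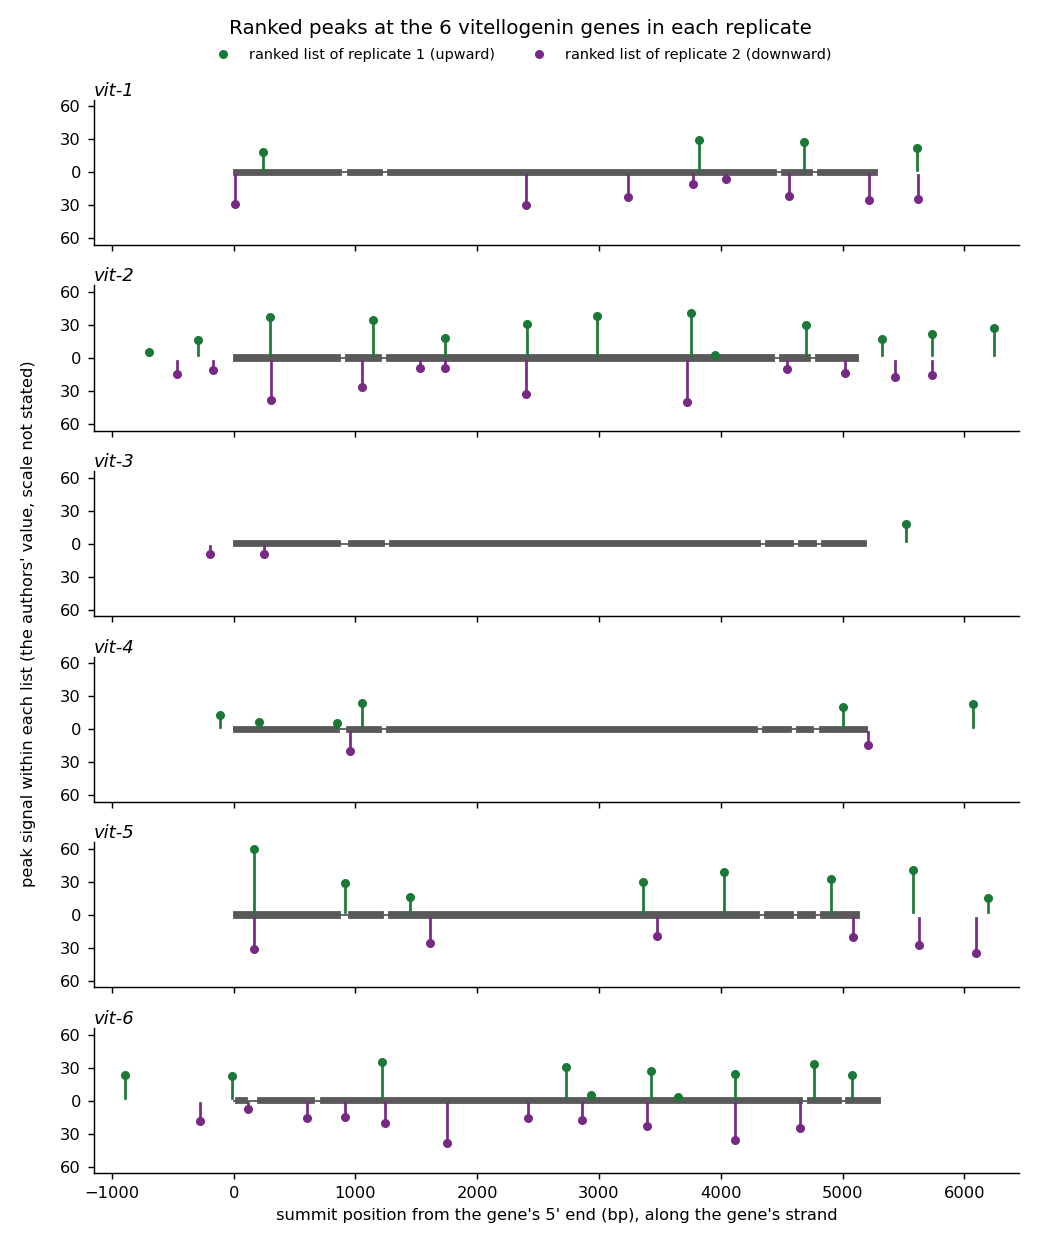
Peaks at each vitellogenin gene in the ranked list of replicate 1 (upward, green) and of replicate 2 (downward, purple), with the summit's position from the 5′ end (bp) on the x axis, the signal within each list on the y axis and exons drawn as boxes. Of the replicate 1 peaks, 11 of 13 at vit-2 and 8 of 10 at vit-6 are overlapped by a replicate 2 peak, and vit-5 has stems at 169 and 170 bp. The replicate 1 stem of 37.8 at 2983 bp in vit-2 has no partner in replicate 2, and vit-3 has 1 peak in replicate 1 and 2 in replicate 2, at different places.

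Each replicate has a ranked list of its own. Of the replicate 1 peaks at the 6 genes, 32 of 42 (76.2%) were overlapped by a replicate 2 peak, against 48.8% of the whole list of replicate 1. Of the replicate 2 peaks, 30 of 41 (73.2%) were overlapped by a replicate 1 peak, against 51.0% of the whole list of replicate 2. At vit-2 these counts were 11 of 13 and 11 of 12, at vit-5 6 of 8 and 6 of 6, and at vit-6 8 of 10 and 6 of 11. At the vit-5 exon 1 peak, replicate 1 had a signal of 60.1 (rank 507 of 58303) and replicate 2 had 31.4 (rank 3297 of 53595), with summits at 169 and 170 bp. The IDR within the replicate was 0.00569 in replicate 1 and 0.292 in replicate 2, so the peak passed the threshold in replicate 1 alone. At the vit-2 exon 1 peak, replicate 1 had 37.5 (rank 3160) and replicate 2 had 38.0 (rank 1183), with summits at 300 and 310 bp. At the vit-2 exon 3 peak, replicate 1 had 41.3 (rank 2006) and replicate 2 had 40.3 (rank 913), with summits at 3752 and 3720 bp. Both replicates therefore had all 3 peaks, at closely matching positions, although no vit-2 peak had an IDR of 0.1 or lower within a single replicate.

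The highest vit-6 peak of replicate 2, at 1751 bp, had a signal of 38.5 and an IDR of 0.0383, and replicate 1 had no peak there. The highest vit-6 peak of replicate 1, at 1221 bp, had 35.4, and replicate 2 had 20.2 at 1246 bp. At vit-1 replicate 1 had 4 peaks and replicate 2 had 8, the highest being 29.5 at 3817 bp in replicate 1 and 30.1 at 2403 bp in replicate 2. At vit-3 replicate 1 had a single peak, of 17.9 past the 3′ end, and replicate 2 had 9.06 and 9.15 near the 5′ end, so the replicates shared no place. At vit-4 replicate 1 had 23.6 at 1053 bp and replicate 2 had 19.7 at 953 bp. At the 3′ end of vit-4 replicate 1 had 20.4 at 5000 bp and 22.8 at 871 bp past the gene, and replicate 2 had 14.4 at 5208 bp. Of the 62 peaks of the library comparison, 32 were overlapped by a peak of both replicates (51.6%), against 28.6% of the whole list, and 13 by neither (21.0%), against 29.4%. The share in both was 12 of 14 at vit-2, 7 of 14 at vit-6, 6 of 11 at vit-5, 5 of 13 at vit-1, 2 of 7 at vit-4 and 0 of 3 at vit-3. In these counts and in the whole list, neighbouring peaks could be overlapped by the same replicate peak. At vit-2 the peak of 72.3 at 3720 bp and the weak peak of 8.61 at 3933 bp met the same replicate peaks, of 41.3 and 40.3.

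The genes with few peaks were also those with little unique sequence. Of all 50-base words of the gene body, counted on both strands of the genome, 25.9% were unique at vit-3 and 21.4% at vit-4. At vit-5 the share was 50.9%, at vit-2 86.9%, at vit-1 87.2% and at vit-6 100%, and the median protein-coding gene also had 100%. With 100-base words the shares were 39.3% at vit-3, 33.1% at vit-4, 72.1% at vit-5, 96.4% at vit-2, 96.5% at vit-1 and 100% at vit-6. Protein-coding genes below 80% by 50-base words made up 7.22% of all. The flanks of the 6 genes were 98.9% to 100% unique. No source used here gives the read length or the treatment of reads with several matches, so the part of repeated sequence in the low counts of vit-3 and vit-4 was not tested.

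**Figure D4:**
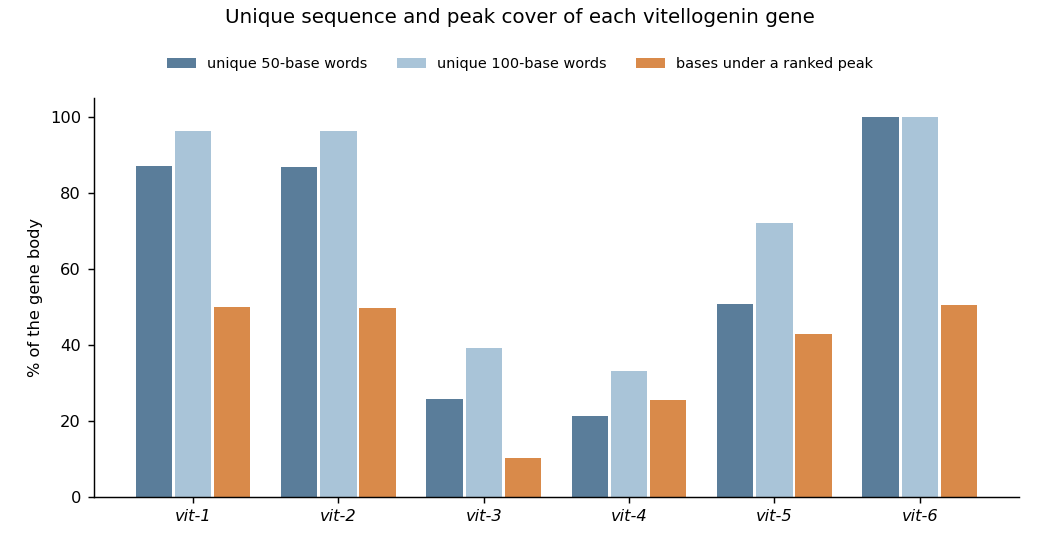
For each vitellogenin gene, the % of the gene body's 50-base words and 100-base words found once in the genome, and the % of its bases under a peak of the ranked comparison of the libraries. The lowest bars of all 3 kinds belong to vit-3 and vit-4, with 10.3% and 25.6% of bases under a peak, and vit-6 is fully unique with 50.6% under a peak.

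The close copies make the gene of origin of 2 of the 3 conservative peaks less certain. The vit-5 exon 1 peak has counterparts of the same length in vit-3 (chrX:3572244-3572519) and vit-4 (chrX:3563669-3563944), each differing from it at 9 of 276 bases. The comparison of the libraries gave a signal of 85.4 at vit-5, no ranked peak at the vit-3 counterpart, and 2 ranked peaks at the vit-4 counterpart. The higher of these, of 18.8, had its summit at -114 bp and shared 4 bases with the counterpart, and the other, of 7.50, shared 136. Within the vit-5 peak 83.3% of the 50-base words were unique, against 22.0% within the vit-4 peak of 7.50. The share was not computed for the vit-3 counterpart, whose gene body had 25.9%. The lower signals at vit-3 and vit-4 therefore do not show that the signal belongs to vit-5, and the part of repeated sequence was not tested. Both counterparts are shown on their own coding strand, with the bases that differ from vit-5 in capitals.
vit-3 counterpart of the vit-5 peak: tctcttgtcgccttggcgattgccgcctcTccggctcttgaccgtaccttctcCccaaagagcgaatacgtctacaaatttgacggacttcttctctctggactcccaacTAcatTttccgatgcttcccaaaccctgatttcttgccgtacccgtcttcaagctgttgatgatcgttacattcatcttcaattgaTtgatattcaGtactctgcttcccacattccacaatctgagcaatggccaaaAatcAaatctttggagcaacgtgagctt
vit-4 counterpart of the vit-5 peak: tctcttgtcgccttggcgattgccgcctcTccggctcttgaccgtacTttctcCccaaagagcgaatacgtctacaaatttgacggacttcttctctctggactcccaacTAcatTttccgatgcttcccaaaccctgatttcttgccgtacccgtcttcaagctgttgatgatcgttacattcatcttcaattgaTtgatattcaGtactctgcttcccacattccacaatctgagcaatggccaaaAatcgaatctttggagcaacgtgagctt

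The vit-2 exon 3 peak has a counterpart in vit-1 (chrX:7731487-7731762) that differs at 5 of 276 bases, and 67.4% of the peak's 50-base words were unique. The signal was 72.3 at vit-2, and a ranked peak with a signal of 41.2 (IDR 0.546) overlapped the vit-1 counterpart. It is shown with the bases that differ from vit-2 in capitals.
vit-1 counterpart of the vit-2 exon 3 peak: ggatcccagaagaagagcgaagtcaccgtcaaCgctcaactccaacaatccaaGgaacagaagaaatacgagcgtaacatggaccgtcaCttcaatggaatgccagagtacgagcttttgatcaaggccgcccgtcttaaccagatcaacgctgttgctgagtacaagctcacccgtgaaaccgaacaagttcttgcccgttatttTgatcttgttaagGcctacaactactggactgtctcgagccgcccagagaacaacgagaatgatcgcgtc

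The vit-2 exon 1 peak was the most distinct, with 20 of 276 bases different in vit-1 and 100% unique 50-base words. In vit-1 its counterpart (chrX:7728059-7728334) met only the edge of the ranked peak at 36 bp. The vit-2 and vit-5 exon 1 peaks overlap in the alignment of the coding sequences, but there the genes are far apart in sequence, with 68.8% of the bases of the vit-2 peak identical in vit-5. The gene without close copies, vit-6, had no conservative peak.

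VPE1 (TGTCAAT) was in 6 of the 6 promoters and VPE2 (CTGATAA) in 5, all but that of vit-3, searched on both strands from 250 bp before to 50 bp after the 5′ end. Of 19973 protein-coding promoters of that length, 5.77% held VPE1, 8.15% held VPE2 and 0.506% held both, and 5 of the 6 members held both. The GATA core TGATAA, which is contained in VPE2, was in 6 of the 6 members and in 30.2% of all promoters. The members had 8 VPE1 and 5 VPE2 matches. In the ranked comparison of the libraries, 3 VPE1 matches (2 at vit-4 and 1 at vit-6) and 3 VPE2 matches (at vit-1, vit-4 and vit-6) lay under a peak. Over all protein-coding promoters 27.5% of VPE1 matches and 26.9% of VPE2 matches did. None of the members' matches lay under a conservative peak, while over all promoters 0.835% of VPE1 and 0.280% of VPE2 matches did, so that count of 0 marks nothing out. The highest of those peaks was the one at 36 bp of vit-1, with a signal of 42.4, and those of vit-6 and vit-4 had 32.8 and 18.8. The 3 conservative peaks themselves held none of these words, nor the word GGTTCGA of the transfer RNA B box.

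The 250 bases before the 5′ end are shown for vit-2 and vit-5, whose conservative peaks begin inside the gene, and for vit-4, whose promoter had a ranked peak over its elements. That vit-4 peak, of 18.8, had an IDR of 0.761 and no overlapping peak in replicate 2. It was lower than the peaks over elements at vit-1 and vit-6. The sequences are on the coding strand and end at the base before the annotated start, with VPE1, VPE2 and further GATA core matches in capitals.
vit-2 promoter, chrX:5100792-5101041: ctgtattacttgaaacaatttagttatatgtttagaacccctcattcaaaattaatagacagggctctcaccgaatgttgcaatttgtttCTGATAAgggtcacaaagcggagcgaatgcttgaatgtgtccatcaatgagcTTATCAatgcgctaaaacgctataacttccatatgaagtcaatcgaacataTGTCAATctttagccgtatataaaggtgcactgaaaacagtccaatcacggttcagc
vit-5 promoter, chrX:3403221-3403470: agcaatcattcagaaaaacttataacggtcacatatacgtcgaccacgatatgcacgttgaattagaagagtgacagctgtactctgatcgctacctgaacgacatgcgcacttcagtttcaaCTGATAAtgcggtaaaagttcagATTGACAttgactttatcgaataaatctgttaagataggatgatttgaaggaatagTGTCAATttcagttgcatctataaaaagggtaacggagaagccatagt
vit-4 promoter, chrX:3563966-3564215: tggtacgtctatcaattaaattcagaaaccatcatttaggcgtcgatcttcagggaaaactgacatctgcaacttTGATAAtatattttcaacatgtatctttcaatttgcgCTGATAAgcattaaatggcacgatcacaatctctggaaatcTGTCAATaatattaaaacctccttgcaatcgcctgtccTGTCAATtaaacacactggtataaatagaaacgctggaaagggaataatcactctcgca
The longest run shared by any pair of these 250-base windows was 7 to 11 bases, except for a run of 50 bases shared by vit-3 and vit-4.

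Genes that take up or process yolk, or regulate the vitellogenins, had median densities nearer to the middle of all genes. The 6 vitellogenin genes had a median of 1.67 ranked peaks per 1000 bp, against 1.35 over 6 genes of uptake and transport, 1.40 over 18 regulators and 1.24 over all protein-coding genes. By highest ranked signal the lists were closer, with medians of 53.1 for the vitellogenins, 49.6 for uptake and transport and 53.0 for the regulators. Of the 6 uptake and transport genes 1 had a conservative peak, against 6.31% of all protein-coding genes. It was cpl-1, a cathepsin L protease gene, with 1 conservative peak, of 150. The summit was 3051 bp from the 5′ end of this 2775 bp gene, and so past its 3′ end. A small noncoding RNA gene lay within 200 bp of that summit. The yolk receptor gene rme-2 had 8 ranked peaks, the highest of 60.3, none in the conservative or combined list and 1 in the thresholded list of replicate 2. Of the 18 regulators 1 had a conservative peak and 2 had one in the combined list, against 6.31% and 7.94% of all protein-coding genes. Counts of that size do not set the regulators apart. The zinc finger factor gene pqm-1 had 1 conservative peak (83.6) and 3 in the combined list. The other, mab-3, which represses the vitellogenins in males, had 1 in the combined list alone. At elt-2, the GATA factor gene, the highest of 3 ranked peaks was 28.1, at the homeodomain gene unc-62 the highest of 27 was 51.9, and at ceh-60, another homeodomain gene, the higher of 2 was 42.0.

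The median density was lower over other intestinal genes than over the vitellogenins, and close to theirs over genes with abundant transcripts elsewhere. Against the vitellogenins' median of 1.67 ranked peaks per 1000 bp, 10 intestinal genes had 0.778, and none of those 10 had a peak in the conservative list (6.31% of all protein-coding genes) or the combined list (7.94%). At shares of that size a count of 0 of 10 does not set them apart from other genes. Single intestinal genes ran from 0 to 2.46 ranked peaks per 1000 bp, a range that takes in all the vitellogenins. Their median highest signal was 49.1, against 53.1 over the vitellogenins. Another set, 10 genes with abundant messenger RNA in many tissues or in muscle, had a median of 1.73 ranked peaks per 1000 bp and a median highest signal of 67.5. Conservative peaks were found at 2 of the 6 vitellogenin genes and at 3 of these 10, of which act-2 had none in the combined list, where the count was 2 of 10. The 3 were the elongation factor gene eef-1A.1 (signal 71.5, summit at 389 bp), the actin gene act-2 (72.7 at 1489 bp) and the heat shock protein 70 family gene hsp-1 (83.7 at 103 bp). The act-2 summit lay past the 3′ end of the gene, which is 1378 bp long. The summits of eef-1A.1 and hsp-1, like the exon 1 summits of vit-2 and vit-5, lay inside the gene within 500 bp of the 5′ end. The lists are small and were described without a test.

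By the pattern of their ranked peaks, the genes most like the vitellogenin median were npa-1, C09G1.4, C44B12.6, pmp-3 and dhcr-24. Likeness was the Euclidean distance over 12 values, the log2 of 1 plus the highest signal in 3 places of 4 ranked lists. Those distances were 0.524 at npa-1, 0.534 at C09G1.4, 0.558 at C44B12.6, 0.559 at pmp-3 and 0.579 at dhcr-24. None of the 5 had a conservative peak, but only 6.31% of all protein-coding genes had one, so that count marks nothing out. The members themselves were farther from their median, from 0.879 at vit-1, with 58 other genes nearer, to 12 at vit-3, so the 6 genes had no single pattern. The gene of the tagged protein, ztf-25, had 5 ranked peaks and none in the conservative or combined list.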

How the data were processed

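ChIP-seq peak lists of 2 samples, biological replicates 1 and 2 of 1 group, were analysed. The authors deposited 8 lists on ce11, 4 ranked and 4 thresholded by IDR, made from alignments per the README texts. No source used here names the aligner, the peak caller, the read length or the treatment of reads with several matches. The signal of a peak is the authors' deposited value, with no stated scale, and was compared within a list alone. The ranked lists hold the authors' −log10 of the global IDR, which was turned back into the IDR. The deposited score columns were read as given and are not printed, and 2 columns of the second ranked list, whose content is not stated, were treated as a score. In the ranked comparison of the libraries, the columns of single calls name no replicate, so replicate values came from each replicate's own ranked list. The files hold no read counts, so depth is unknown and no interval was given.

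The members, the gene lists and the rules were chosen with earlier results of these data known. Positions are 1-based, and genes came from Ensembl release 115 of WBcel235, the assembly of ce11. Exon counts and coding sequences are those of the transcript with the longest coding sequence, and feature calls used all transcripts. Highest signals are 0 where a gene had no peak. Genes were named by rule: the 6 members; every gene of the yolk pathway and abundant or intestinal gene lists with a conservative or combined peak; rme-2, elt-2, unc-62 and ceh-60; ztf-25; and the 5 genes most like the members' median pattern. No table of promoters or proteins was given, so promoters were read from the genome. Coding sequences were aligned with MAFFT 7.526, and counts were made with Python 3.11.15 and numpy 2.4.6. Counting of peaks and unique words was tested on simulated data. Alternatives numbered 22. No test was made, since the series has 1 group.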

Additional observations from a re-analysis of the deposited data

How the results depend on the processing

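The conservative peaks at vit-2 and vit-5 rest on both libraries, and with a single library's thresholded list the number of vitellogenin genes with a peak was 0 to 1, not 2. It was 2 in the combined list, with flanks of 500 bp, by summit and at an IDR of 0.05, and 3 at an IDR of 0.1 (with vit-6) and with flanks of 2000 bp (with vit-1). Of all protein-coding genes, 7.94% had a peak in the combined list, 15.4% at an IDR of 0.05 and 24.4% at an IDR of 0.1. That share was not computed for the other flanks or for summits in the window, so those counts cannot be set against it. Ranked peaks numbered 41 to 42 in the single libraries, against 62 in their comparison. The members' median highest signal was 53.1 with both libraries, 32.4 in each single library, whose scale is not stated to be the same, and 68.0 with flanks of 2000 bp. The median over the members of the share of genes with a lower density was 79.8%. It was 66.4% in the second ranked list, 75.1% to 80.6% in the single libraries, 69.7% for gene bodies alone, 73.6% with flanks of 2000 bp, 84.4% among genes of 3000 to 8000 bp and 87.4% among genes of the same chromosome, and the cause of these shifts was not tested. Of all recomputed values, single genes included, 68 stayed within their spread between libraries (counts within 1.5 times) and 37 moved. That spread came from 2 values, so where the libraries happened to match closely a small shift counted as moved. In the second ranked list the density share of vit-2 went from 93.0% to 93.6% and counted as moved. The share of vit-6 fell from 91.6% to 70.4% there and counted as moved too. The share of vit-1 went from 86.7% to 80.2% and did not, so the tally is not a measure of robustness. No paired analysis was possible because there is 1 group. Depth is unknown, and places in vit-3, vit-4 and vit-5 that lack unique sequence limit what the absence of a peak there can show.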
